A study of Mus musculus with 8 samples.

Results

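The axon guidance genes examined here were the semaphorins, their plexin and neuropilin receptors, the netrins and their Unc5 receptors, the Slits and their Robo receptors, and the ephrins and their Eph receptors. Members were taken from the count matrix by gene symbol (Sema3 to Sema7, Plxn, Nrp, Ntn, Unc5, Slit, Robo, Epha, Ephb, Efna and Efnb), with no measured value in the rule, which gave 67 of the 50578 genes listed. The members were chosen with earlier results of these data known, so the shares called among them are not those of a blindly chosen set. Of these, 57 passed the filter on low counts and were tested among 15154 genes. The other 10 (Sema3g, Sema4a, Sema4f, Plxnb3, Ntn5, Robo4, Epha6, Epha8, Epha10 and Ephb1) had 0 to 16 reads in every library.

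RNA sequencing was performed on wild-type mouse embryonic fibroblasts (MEFs), cells grown out of the trunk of E13.5 C57BL/6J embryos without inner organs and used at passages P3-P5, in 4 groups of 2 libraries: untreated MEFs, and MEFs given 10 μM of carbidopa, LY-364947 (spelt LY-364747 in the sample labels) or CHIR-99021. Carbidopa is an inhibitor of the enzyme that makes dopamine and serotonin (aromatic L-amino acid decarboxylase), LY-364947 blocks the type I TGF-beta receptor kinase, and CHIR-99021 blocks GSK3 and so stabilizes beta-catenin. The compounds had been chosen as candidates for turning fibroblasts into hepatic progenitor-like cells, and the labels call the treated cells hepatic-like. No vehicle is named for the untreated cells, and the length of treatment before RNA sequencing is not given in the sources used here, so compound, vehicle and time in culture cannot be told apart in any comparison with untreated MEFs.

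Guidance genes were named for steering growth cones, but the same ligand and receptor pairs act in fibroblasts, vessels and epithelia, where they control cell spreading, repulsion and sorting. Secreted class 3 semaphorins mostly bind neuropilins, which pair with plexins that carry the signal, whereas Sema3e binds Plxnd1 directly. Slits are secreted repellents read by Robo receptors, netrins are read by Dcc and Unc5 receptors, and membrane-bound ephrins signal in both directions with Eph receptors on a neighbouring cell.

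The promoter sequences of Sema3e and Efnb2, the members with the largest rises among the more abundant genes, and of Robo1 and Robo2, neighbouring genes that moved in opposite directions, are given so that the letters upstream of the most changed members can be compared. Each is the 250 bases before a RefSeq start site (GRCm38.p6, the mm10 build), printed 5′ to 3′ on the gene's own strand. Capitals mark a match, on either strand, to CTTTGAA or CTTTGAT (bound by the TCF/LEF partners of beta-catenin), to CAGACA (SMAD factors) or to GGAATG (TEAD factors). The 4 windows are chr5:14025026-14025275, chr8:8661243-8661492, chr16:72662899-72663148 and chr16:74411826-74412075, and none overlaps an annotated exon.
Sema3e (plus strand): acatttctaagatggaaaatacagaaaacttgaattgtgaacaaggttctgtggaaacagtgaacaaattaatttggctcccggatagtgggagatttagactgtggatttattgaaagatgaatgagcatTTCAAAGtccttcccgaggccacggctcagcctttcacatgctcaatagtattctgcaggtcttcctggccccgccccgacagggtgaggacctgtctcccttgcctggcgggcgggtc
Efnb2 (minus strand): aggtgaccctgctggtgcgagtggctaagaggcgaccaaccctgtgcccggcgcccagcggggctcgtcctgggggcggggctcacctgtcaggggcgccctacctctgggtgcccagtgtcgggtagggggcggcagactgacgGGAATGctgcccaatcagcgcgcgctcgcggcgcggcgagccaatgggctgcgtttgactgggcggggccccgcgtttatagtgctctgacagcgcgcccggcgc
Robo1 (plus strand): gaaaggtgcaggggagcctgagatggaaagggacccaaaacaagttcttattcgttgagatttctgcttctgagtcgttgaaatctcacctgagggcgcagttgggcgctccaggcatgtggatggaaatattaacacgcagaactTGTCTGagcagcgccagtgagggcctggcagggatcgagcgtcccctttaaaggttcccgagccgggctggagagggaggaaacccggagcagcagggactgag
Robo2 (minus strand): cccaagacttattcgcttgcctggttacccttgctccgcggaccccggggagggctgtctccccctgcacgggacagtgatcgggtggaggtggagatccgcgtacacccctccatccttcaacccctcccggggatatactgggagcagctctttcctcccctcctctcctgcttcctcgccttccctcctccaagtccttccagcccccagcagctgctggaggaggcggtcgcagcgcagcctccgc
The Sema3e window held 1 TCF/LEF match (read as TTCAAAG), the Efnb2 window 1 TEAD match, the Robo1 window 1 SMAD match (read as TGTCTG), and the Robo2 window none of the motifs. Of the 67 members, 58 had an entry in the RefSeq promoter table, with 74 promoters. TCF/LEF matches stood in 3 of these (4.05%) against 7.48% of all 32851 promoters in the table, SMAD matches in 17 (23.0% against 17.1%) and TEAD matches in 7 (9.46% against 12.6%). A match is a description of letters and not a site, and the RefSeq start of Robo1 used here lies 354843 bases inside the longer gene annotated by GENCODE.

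Libraries held 15039566 to 20504338 counts, of which the 67 members took 0.440% to 0.594%. The carbidopa libraries differed from each other more than those of any other group: their variance ratio, the chi-square over its degrees of freedom, was 34.6, against 4.31 to 9.21 in the other groups. Fibroblast collagens and Fn1 were abundant in all 8 libraries, while hepatocyte genes were at or near 0 (Alb 0 to 10 reads, Hnf4a 1 to 10 reads, and Serpina1a, Tat, Cyp3a11 and Ahsg at 0 reads in each), so the cells are called treated MEFs here. Nothing in the labels says that replicates came from separate cultures, so p-values measure only the spread between these libraries. In these bulk samples, fewer cells of a type and less RNA per cell cannot be told apart.

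Each compound was first compared with untreated MEFs to ask which guidance genes changed. Sema3e, Efnb2, Efnb1, Robo1 and Sema3c rose with all 3 compounds, and Robo2, Slit3, Slit2, Nrp2, Epha1, Plxnc1 and Sema4d fell with all 3. Under carbidopa, 41 of the 57 tested members passed the threshold (adjusted p under 0.05, edgeR's quasi-likelihood test), 16 higher and 25 lower, which is 71.9% of members against 37.7% of all genes tested. Under LY-364947, 37 passed, 17 higher and 20 lower (64.9% against 31% of all genes). Under CHIR-99021, 38 passed, 15 higher and 23 lower (66.7% against 38.8%). By direction, the share of all genes called was 18% higher and 19.7% lower under carbidopa, 13.7% and 17.2% under LY-364947, and 18.7% and 20.1% under CHIR-99021. Fewer members were called under each compound, and fewer of them higher, when either untreated library was left out, and fewer of all genes were called too. Such fits leave the untreated group without a replicate. The counts of higher members thus rested in part on having both untreated libraries, and the fall cannot be assigned to either of them.

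The median size of the log2 fold change, taken without its sign, was 0.75 for members against 0.40 for all genes under carbidopa, 0.94 against 0.33 under LY-364947 and 1.01 against 0.40 under CHIR-99021. Libraries of the groups compared did not overlap for 52, 51 and 47 members under carbidopa, LY-364947 and CHIR-99021, against 68.9%, 72.7% and 76.2% of all genes. Signed medians were -0.32, 0.04 and -0.06 for members and 0.04, 0.03 and 0.04 for all genes. Since the 3 comparisons share the untreated libraries, their calls are not independent of each other. Side by side, 17 members (29.8%) were called lower with each compound, against 12.8% of all genes. Called higher with each were 12 (21.1% against 8.6%), and 9 were called with none (15.8% against 47.3%).

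**Figure D1:**
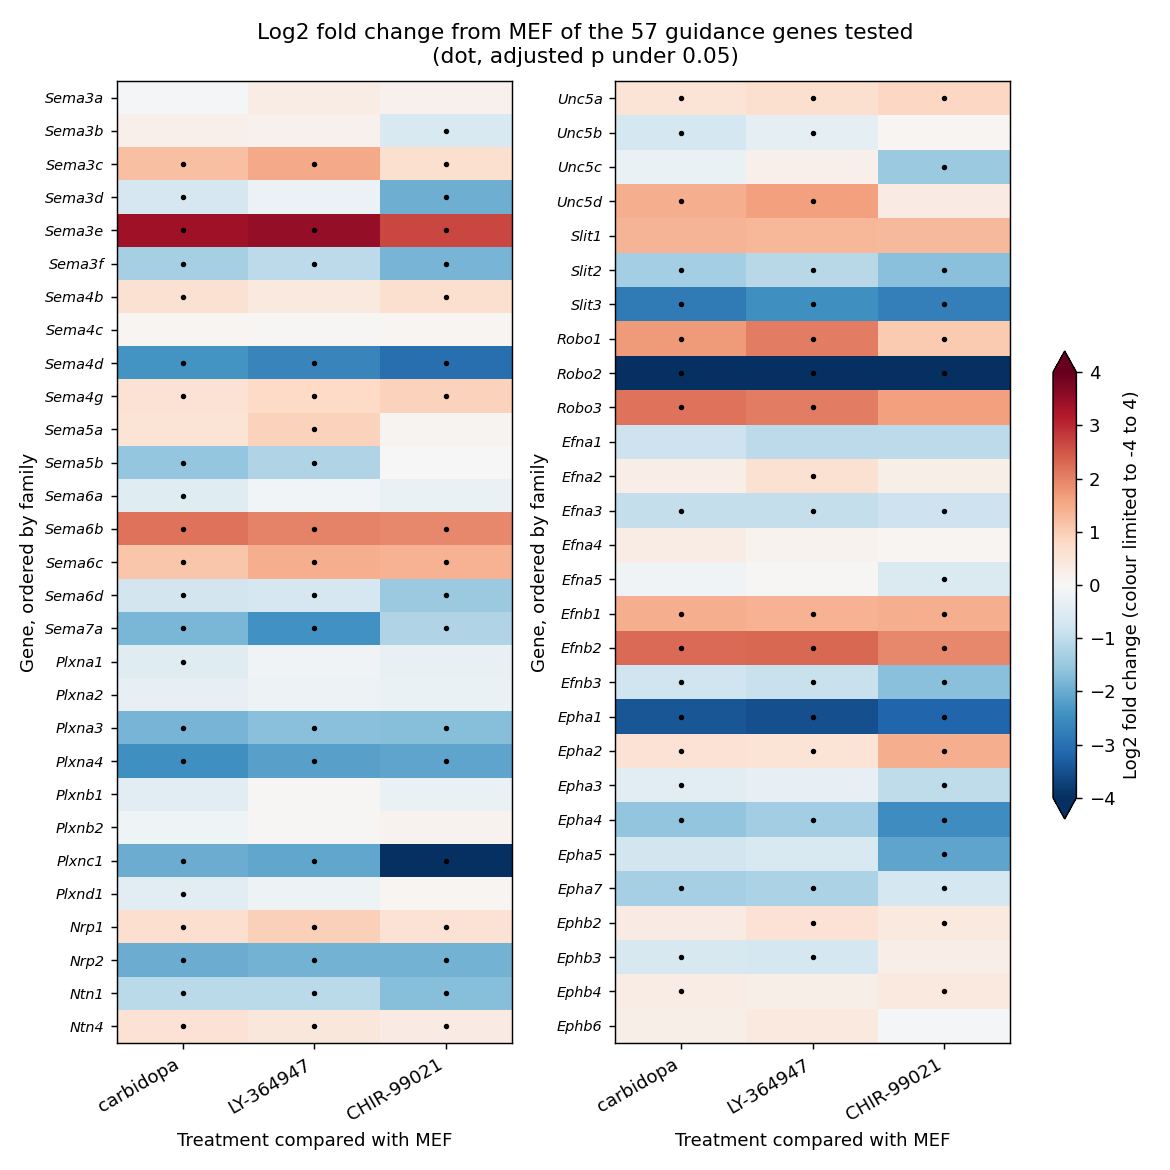
Log2 fold change from untreated MEFs (colour, limited to -4 to 4) of the 57 tested guidance genes, ordered by family, for each compound, with a dot where the adjusted p was under 0.05. Blue rows include Robo2, Slit3, Epha1 and Plxnc1, and red rows include Sema3e and Efnb2. The 17 genes called lower and 12 called higher with every compound show as rows with 3 dots of 1 colour. They are 29.8% and 21.1% of members, against 12.8% and 8.6% of all genes.

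Among the ligands, Sema3e had the largest rise. This secreted semaphorin, a repellent for endothelial cells that signals through Plxnd1, had 1033 and 1140 normalized counts (reads scaled to a common library size) in the untreated libraries, 11132 and 11813 under carbidopa, 12276 and 12389 under LY-364947, and 7113 and 6808 under CHIR-99021. Every treated library was above both untreated ones, and the CHIR-99021 libraries lay below the other treated ones. The log2 fold change was 3.40 ± 0.11 (SE) under carbidopa (adjusted p = 7.3e-09, edgeR), 3.50 ± 0.11 under LY-364947 (adjusted p = 6.5e-09) and 2.68 ± 0.10 under CHIR-99021 (adjusted p = 3.4e-08). Its receptor Plxnd1 had 243 and 223 normalized counts in untreated MEFs, 167 and 174 under carbidopa, 199 and 202 under LY-364947, and 263 and 225 under CHIR-99021. Plxnd1 thus lay lower in the carbidopa libraries (log2 fold change -0.45 ± 0.15, adjusted p = 0.034, edgeR), while its differences of -0.22 ± 0.15 under LY-364947 and 0.07 ± 0.14 under CHIR-99021 did not pass. The carbidopa call on Plxnd1 was lost by DESeq2, without a filter on low counts, in the fit of the 2 groups compared and without any 1 of the untreated or LY-364947 libraries or carbidopa replicate 1 (adjusted p up to 0.179). Per unit of gene length, the Sema3e level was 3.34 and 4.01 times the Plxnd1 level in the untreated libraries and 21.3 to 53.4 times in the treated ones.

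Sema3c, a neuropilin ligand needed for heart outflow tract development, had 3695 and 3980 normalized counts in untreated MEFs. It reached 8282 and 9442 under carbidopa, 11470 and 10477 under LY-364947, and 5656 and 6203 under CHIR-99021. No treated library overlapped the untreated ones, and the order of the groups was that of Robo1 below, under CHIR-99021 nearest to untreated. Log2 fold changes were 1.21 ± 0.11 (adjusted p = 1.5e-05, edgeR), 1.52 ± 0.11 and 0.63 ± 0.11 in the same order of compounds.

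Sema6c, a transmembrane semaphorin of low abundance here, had 25.2 and 47.2 normalized counts in untreated MEFs, 68.9 and 88.3 under carbidopa, 84.2 and 117 under LY-364947, and 89.4 and 103 under CHIR-99021. It rose with all 3 compounds, by 1.10 ± 0.31, 1.45 ± 0.31 and 1.38 ± 0.31 on the log2 scale, but without untreated replicate 1 the calls under carbidopa (0.73) and CHIR-99021 (1.02) were lost. Sema6b, from a lower start of 11.9 and 16.1 normalized counts, rose by 2.16 ± 0.31, 1.99 ± 0.32 and 1.91 ± 0.32.

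Other semaphorins fell. Sema4d, a membrane semaphorin made by leukocytes and read by Plxnb1, went from 353 and 340 normalized counts to 58.0 and 73.3 under carbidopa, 49.1 and 62.7 under LY-364947, and 42.1 and 43.5 under CHIR-99021. The groups did not overlap, and the log2 fold changes were -2.40 ± 0.19, -2.63 ± 0.19 and -3.01 ± 0.20 (adjusted p = 4.8e-06, 3.3e-06 and 1.5e-06, edgeR). Sema3f, a Nrp2 ligand, fell by 1.34, 1.05 and 1.85 on the log2 scale. Of the 17 semaphorins tested, 6 were higher and 7 lower under carbidopa, 6 higher and 5 lower under LY-364947, and 6 higher and 6 lower under CHIR-99021.

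Sema3a, the first growth cone-collapsing semaphorin described in vertebrates, is given as an example of a member whose untreated replicates disagreed. Its untreated libraries had 2441 and 1228 normalized counts, and the 6 treated libraries lay between them, from 1607 to 2325. It passed in no comparison.

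The neuropilins moved apart. Nrp1, a co-receptor for class 3 semaphorins and VEGF, rose from 2516 and 2523 normalized counts to 3474 and 4598 under carbidopa, 4795 and 5018 under LY-364947, and 3826 and 3643 under CHIR-99021. Nrp2, its paralogue with a preference for Sema3f, fell from 6416 and 6300 to 1324 and 1900, 1658 and 1801, and 1733 and 1709 in the same order. Both genes had every treated library on 1 side of the untreated ones. Log2 fold changes were 0.68 ± 0.13, 0.96 ± 0.13 and 0.57 ± 0.13 for Nrp1 and -1.98 ± 0.15, -1.88 ± 0.15 and -1.89 ± 0.15 for Nrp2 (adjusted p from 4.3e-06 to 6.4e-06 for Nrp2, edgeR).

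The plexins called against untreated MEFs were all lower. Plxnc1, the receptor of Sema7a, had 466 and 410 normalized counts in untreated MEFs, 100 and 122 under carbidopa, 100 and 107 under LY-364947, and 18.5 and 19.7 under CHIR-99021. The untreated libraries lay highest and the CHIR-99021 libraries lowest, with no overlap, while carbidopa and LY-364947 lay between them and overlapped each other. Log2 fold changes from untreated were -1.98 ± 0.16, -2.07 ± 0.17 and -4.51 ± 0.21 (adjusted p = 7.3e-06, 6.1e-06 and 1.1e-07, edgeR). Its ligand Sema7a, a GPI-anchored semaphorin, fell with each compound too, by 1.83, 2.43 and 1.21. Sema7a was scarce, with 55.8 and 40.3 normalized counts in untreated MEFs and 17.5 and 23.8 under CHIR-99021. Its call under CHIR-99021 was lost by DESeq2 and in some fits without 1 library.

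Plxna4, which pairs with neuropilins for Sema3a, had 264 and 244 normalized counts in untreated MEFs, 37.0 and 55.8 under carbidopa, 54.1 and 58.0 under LY-364947, and 65.8 and 51.8 under CHIR-99021. It fell by 2.45, 2.18 and 2.11 on the log2 scale, and Plxna3 by 1.87, 1.67 and 1.70. Plxna1, the plexin with the highest level per unit of exon length in untreated MEFs (though below Plxnb2, 64.3 against 67.9 FPKM, on the length of the longest coding transcript), was at 10517 and 10218 normalized counts there. It was at 5957 and 8950 under carbidopa, 9015 and 9876 under LY-364947, and 8694 and 8229 under CHIR-99021, and passed only under carbidopa (log2 fold change -0.48 ± 0.16, adjusted p = 0.04, edgeR). That call was lost in the fit of the 2 groups and without any 1 library other than carbidopa replicate 2 (adjusted p up to 0.161), and the value ran from -0.21 without carbidopa replicate 1 to -0.80 without replicate 2. Plxnb2, the other abundant plexin, passed with none, with log2 fold changes of -0.17 ± 0.12, 0.05 ± 0.12 and 0.13 ± 0.12. Of the 8 plexins tested, 5, 3 and 3 were lower under carbidopa, LY-364947 and CHIR-99021, with 0 higher.

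Plxnc1, Sema4d and Sema7a are also expressed by myeloid cells, and macrophage transcripts moved with them. The 16 macrophage markers summed to 1143 and 1185 CPM (counts scaled to a common library size) in untreated MEFs, 376 and 352 under carbidopa, 263 and 268 under LY-364947, and 85.5 and 94.0 under CHIR-99021. Of 13 markers tested, 12, 12 and 13 were lower and none higher, while Cd163 had 0 or 1 read in every library. Lyz2 and Csf1r were among the markers present in untreated MEFs, at 9925 and 11753 reads and at 503 and 515 reads. The part of these cells in the result was not tested.

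The Slits held the most abundant member. Slit3 had 179 ± 2.34 FPKM (fragments per unit of exon length and library size; SD, n = 2) in untreated MEFs, above Plxna1 at 64.1 ± 1.31 FPKM and Plxnb2 at 57.2 ± 2.42 FPKM by the length of all exons. On the length of the longest coding transcript Slit3 stayed highest, at 208 FPKM, while the order below it turned to Slit2 (77.9 FPKM), Plxnb2 (67.9) and Plxna1 (64.3). Its normalized counts were 19250 and 19608 in untreated MEFs, 2061 and 3455 under carbidopa, 3435 and 3724 under LY-364947, and 3127 and 2764 under CHIR-99021. All 6 treated libraries were far below both untreated ones. The log2 fold change was -2.82 ± 0.20, -2.44 ± 0.20 and -2.72 ± 0.20 (adjusted p = 2.8e-06, 7.4e-06 and 3.5e-06, edgeR).

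Slit2, the Slit best known as a midline repellent, fell less: from 13654 and 14053 normalized counts to 4488 and 6325 under carbidopa, 6669 and 6196 under LY-364947, and 4188 and 4469 under CHIR-99021. On the log2 scale it changed by -1.36 ± 0.15, -1.11 ± 0.15 and -1.68 ± 0.15. Slit1 was scarce in each library (at most 17.5 normalized counts) and did not pass. Summed over the 3 Slits, the level went from 208 and 212 FPKM in untreated MEFs to 29.0 to 48.1 FPKM in treated ones.

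The Robo receptors showed the widest split between paralogues. Robo2 had 1041 and 1223 normalized counts in untreated MEFs, 6.72 and 9.16 under carbidopa, 18.0 and 13.3 under LY-364947, and 20.6 and 33.2 under CHIR-99021. Robo1 had 652 and 754 in untreated MEFs, 1935 and 2607 under carbidopa, 2944 and 2839 under LY-364947, and 1513 and 1420 under CHIR-99021. Neither gene overlapped between untreated and treated libraries, and the directions were opposite. Robo2 had log2 fold changes of -7.13 ± 0.25 (adjusted p = 1.7e-08, edgeR), -6.17 ± 0.23 (adjusted p = 2.7e-08) and -5.39 ± 0.22 (adjusted p = 4.1e-08), and Robo1 of 1.69 ± 0.15, 2.04 ± 0.15 and 1.06 ± 0.15 (adjusted p = 1e-05, 2.8e-06 and 0.00027). The remaining tested member, Robo3, was at 19.3 or fewer normalized counts in every library and was called higher under carbidopa and LY-364947.

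Because a ratio of genes within a library does not depend on how libraries are scaled, the paralogues were also set against each other per unit of exon length. The Robo1 to Robo2 ratio was 0.644 and 0.634 in untreated MEFs, 296 and 293 under carbidopa, 168 and 219 under LY-364947, and 75.7 and 44.1 under CHIR-99021. The Nrp1 to Nrp2 ratio was 0.475 and 0.485 in untreated MEFs and 2.58 to 3.50 in treated ones. Both ratios thus crossed 1, with Robo2 and Nrp2 the higher paralogue in untreated MEFs and Robo1 and Nrp1 in every treated library. The Slit2 to Slit3 ratio was 0.169 and 0.171 in untreated MEFs and 0.319 to 0.520 in treated ones, so Slit3 was the higher in every library on these lengths. With the length of the longest coding transcript in place of all exons, the Slit2 to Slit3 ratio was 0.372 and 0.376 in untreated MEFs and 0.703 to 1.14 in treated ones, and which Slit was the higher in treated cells was therefore not fixed.

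**Figure D2:**
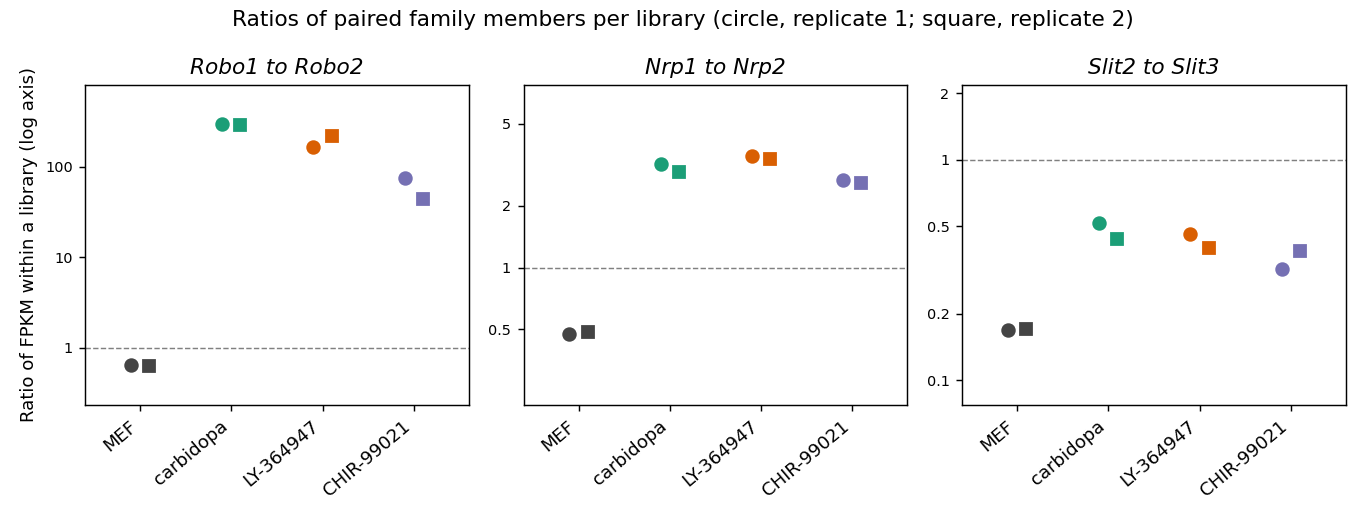
Ratio of FPKM between paired family members within each library, on a log axis, by group, with the dashed line at a ratio of 1. Robo1 to Robo2 goes from 0.644 and 0.634 in untreated MEFs to between 44.1 and 296 in treated libraries, Nrp1 to Nrp2 from 0.475 and 0.485 to between 2.58 and 3.50, and Slit2 to Slit3 from 0.169 and 0.171 to between 0.319 and 0.520.

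The 2 netrins tested went opposite ways. Ntn4, a laminin-like netrin of basement membranes and the highest netrin per unit of length in untreated MEFs (12.0 ± 0.14 FPKM), had 795 and 809 normalized counts there, 1192 and 1228 under carbidopa, 1025 and 1148 under LY-364947, and 1001 and 1002 under CHIR-99021. It rose with each compound, by 0.59 ± 0.10, 0.44 ± 0.10 and 0.32 ± 0.10 (adjusted p = 0.0011, 0.0074 and 0.029, edgeR). The call under CHIR-99021 was lost by DESeq2, without a filter on low counts and without any 1 library of the 2 groups (adjusted p up to 0.153), and that under LY-364947 without either untreated library or LY-364947 replicate 2 (up to 0.099). Ntn1, the classical attractant, fell by 1.09, 1.08 and 1.71 on the log2 scale.

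Unc5b, the Unc5 receptor with the highest level per unit of length in untreated MEFs, had 1848 and 1772 normalized counts in untreated MEFs, 1061 and 1163 under carbidopa, 1319 and 1431 under LY-364947, and 1942 and 1842 under CHIR-99021. It fell under carbidopa and LY-364947, by 0.70 ± 0.10 and 0.40 ± 0.10 (the latter lost without either untreated library or LY-364947 replicate 1, adjusted p up to 0.132), whereas CHIR-99021 libraries overlapped the untreated ones (log2 fold change 0.06 ± 0.10). Unc5c went another way, with 165 and 149 normalized counts in untreated MEFs, 98.3 and 159 under carbidopa, 184 and 180 under LY-364947, and 45.2 and 65.3 under CHIR-99021. It passed only under CHIR-99021 (log2 fold change -1.50 ± 0.27, adjusted p = 0.0014, edgeR).

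Among the ephrins, Efnb2 and Efnb1 of the B class rose with every compound, and of the 5 A ephrins 1, 1 and 2 were lower and 0, 1 and 0 higher under carbidopa, LY-364947 and CHIR-99021. Efnb2, a transmembrane ligand best known as a marker of arterial endothelium, had 1790 and 1913 normalized counts in untreated MEFs, 9137 and 8780 under carbidopa, 9220 and 8879 under LY-364947, and 6852 and 7251 under CHIR-99021. Efnb1, an X-linked ligand with a role in craniofacial development, had 686 and 625 in untreated MEFs, 1939 and 1686 under carbidopa, 1661 and 1795 under LY-364947, and 1931 and 1672 under CHIR-99021. For both, every treated library exceeded the untreated ones. Log2 fold changes were 2.27 ± 0.10, 2.29 ± 0.10 and 1.93 ± 0.10 for Efnb2 (adjusted p = 7.4e-08, 7.6e-08 and 2e-07, edgeR) and 1.47 ± 0.12, 1.40 ± 0.12 and 1.46 ± 0.12 for Efnb1. Efnb3 fell, by 0.81, 0.89 and 1.66. The 3 B ephrins summed to 28.3 and 28.2 FPKM in untreated MEFs and 87.1 to 108 FPKM in treated ones, and the 5 A ephrins to 28.2 and 30.2 FPKM and 21.7 to 26.6 FPKM.

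Endothelial markers were in part absent and in part present beside the Efnb2 rise. Cldn5 had 0 reads in every library, Tie1 0 or 1, Pecam1 0 to 4 and Cdh5 0 to 7, whereas Kdr had 141 to 246 in every library, and Vwf and Emcn had 77 and 99 and 72 and 81 in untreated MEFs. The 12 endothelial markers summed to 275 and 253 CPM in untreated MEFs, most of it Flt1, and to 61.8 to 83.7 in treated ones, with 3, 3 and 4 of the 6 tested lower and none higher. The part of endothelial cells in the result was not tested. Efnb1 and Plxna3 are X-linked, and Xist, the RNA that coats the inactive X in female cells, went from 16516 and 18369 reads in untreated MEFs to between 6217 and 9520 in treated libraries (log2 fold change -1.99 ± 0.12, -1.47 ± 0.12 and -1.23 ± 0.12). Among 4 Y-linked genes only Ddx3y passed, by -0.50, -0.38 and -0.53. The part of the sex of the cells in these results was not tested.

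Eph receptors of the A class mostly fell. Epha1 had 109 and 115 normalized counts in untreated MEFs, 10.1 and 10.8 under carbidopa, 6.01 and 13.3 under LY-364947, and 19.5 and 5.18 under CHIR-99021, with no overlap between untreated and treated libraries. It fell by 3.41 ± 0.45, 3.51 ± 0.47 and 3.17 ± 0.46 on the log2 scale. Of its exon bases, 6.01% overlap Zyx on the other strand, and whether the counting used strand is not given in the sources used here, so reads of the shared part cannot be told apart from those of Zyx. The same limit holds for other tested members, with the largest such overlaps at 14.13% for Efna3, 10.71% for Plxna1, 10.51% for Efna4 and 7.27% for Sema4c.

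Epha4, a receptor that binds both ephrin classes, had 1101 and 1343 normalized counts in untreated MEFs, 371 and 455 under carbidopa, 471 and 456 under LY-364947, and 227 and 207 under CHIR-99021. It fell by 1.57 ± 0.14, 1.40 ± 0.14 and 2.49 ± 0.15. Epha7 had 275 and 253, 96.6 and 112, 103 and 114, and 168 and 155 in the same order of groups, and fell by 1.34, 1.28 and 0.71. For both receptors the CHIR-99021 libraries stood apart from the other treated ones, below them for Epha4 and above them for Epha7.

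Epha2, the A-class receptor known from epithelia and tumours, was the exception among the A class. It had 380 and 317 normalized counts in untreated MEFs, 608 and 437 under carbidopa, 493 and 527 under LY-364947, and 1008 and 886 under CHIR-99021. It rose by 0.59 ± 0.17, 0.55 ± 0.17 and 1.45 ± 0.17 (adjusted p = 0.02, 0.031 and 8e-05, edgeR). The call under carbidopa was lost in the fit of the 2 groups and without untreated replicate 2 or carbidopa replicate 1 (where the value was 0.33; adjusted p up to 0.167), and that under LY-364947 without any 1 library of the 2 groups (up to 0.224). Of the 6 A-class receptors tested, 4, 3 and 5 were lower under carbidopa, LY-364947 and CHIR-99021, and 1 was higher with each.

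Ephb3, the Eph receptor with the highest level per unit of length in untreated MEFs (11.3 ± 0.60 FPKM) and known for sorting intestinal crypt cells, had 1391 and 1290 normalized counts in untreated MEFs. It had 972 and 760 under carbidopa, 793 and 854 under LY-364947, and 1683 and 1542 under CHIR-99021. It fell under carbidopa and LY-364947, by 0.63 ± 0.13 and 0.70 ± 0.13, and its difference of 0.27 ± 0.13 under CHIR-99021 did not pass (adjusted p = 0.12, edgeR).

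**Figure D3:**
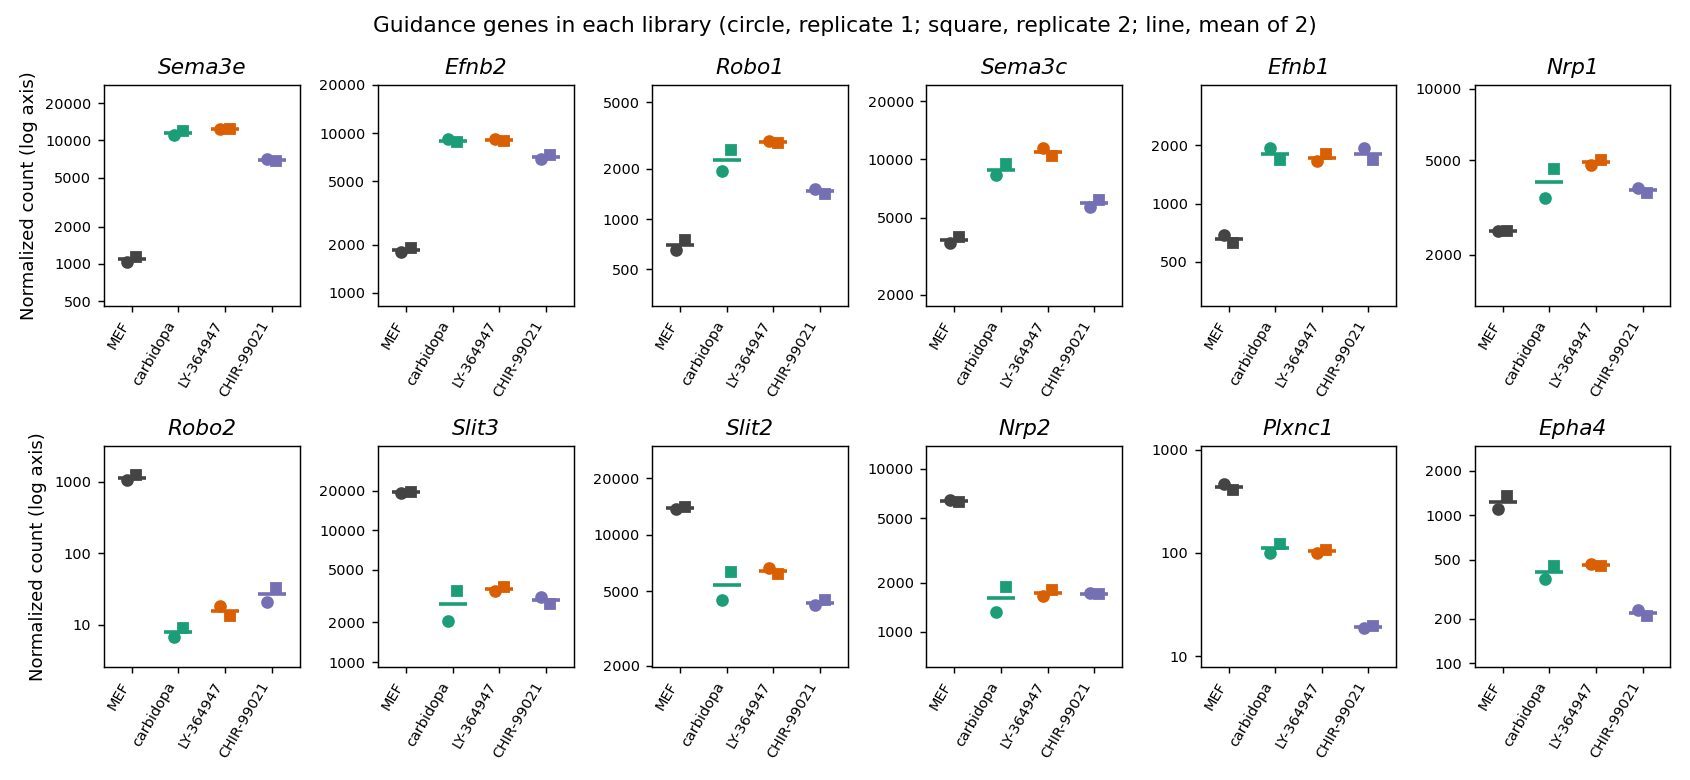
Normalized counts of 12 guidance genes in each library (log axis, a separate scale in each panel), with circles for replicate 1, squares for replicate 2 and lines for the mean of 2. Genes in the upper row lie higher in all 6 treated libraries than in both untreated ones, from 1033 and 1140 to at least 6808 for Sema3e, and genes in the lower row lie lower, from 1041 and 1223 to at most 33.2 for Robo2.

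The treatments were next compared with each other, so that no untreated value enters the differences. The untreated libraries still took part in the shared estimate of spread, the count filter and the scaling. CHIR-99021 cells had more Ephb3, Epha2, Epha7, Unc5b and Sema5b than cells given either other compound, and less Plxnc1, Sema3d, Unc5c, Epha4, Sema3e, Sema3c and Robo1. Against carbidopa, 23 of the 57 members passed, 7 higher and 16 lower (40.4%, against 14.7% of all genes, 6.62% higher and 8.08% lower). Against LY-364947, 23 passed, 5 higher and 18 lower (40.4%, against 14.1% of all genes, 6.45% higher and 7.69% lower). Libraries did not overlap for 36 and 44 members, against 52.2% and 64.5% of all genes. The calls comprised 25 genes, 21 of them called in both comparisons, which share the CHIR-99021 libraries.

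Plxnc1 showed the largest of these differences, at -2.53 ± 0.22 against carbidopa (adjusted p = 8.6e-05, edgeR) and -2.44 ± 0.22 against LY-364947 (adjusted p = 0.00012), beside the macrophage marker sums given above. Sema3d, a class 3 semaphorin of heart and vessel development, had 1058 and 1253 normalized counts in untreated MEFs, 621 and 825 under carbidopa, 1103 and 884 under LY-364947, and 296 and 307 under CHIR-99021. CHIR-99021 libraries thus lay below all others, with differences of -1.26 ± 0.17 and -1.72 ± 0.17. Sema3b, a further class 3 semaphorin, had 461 and 494 in untreated MEFs, 571 and 518 under carbidopa, 495 and 575 under LY-364947, and 369 and 254 under CHIR-99021, with differences of -0.81 ± 0.17 and -0.78 ± 0.17.

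Unc5c differed by -1.22 ± 0.26 and -1.72 ± 0.26, and Epha4 by -0.93 ± 0.15 and -1.09 ± 0.15. Sema3e, Sema3c and Robo1, which rose with every compound, were lower under CHIR-99021 than with the others: Sema3e differed by -0.72 ± 0.10 and -0.83 ± 0.10, Sema3c by -0.58 ± 0.11 and -0.89 ± 0.11, and Robo1 by -0.63 ± 0.14 and -0.98 ± 0.14. In the other direction, Ephb3 differed by 0.90 ± 0.13 and 0.97 ± 0.13 (adjusted p = 0.0014 and 0.00094, edgeR) and Epha2 by 0.86 ± 0.16 and 0.89 ± 0.16. Unc5b differed by 0.77 ± 0.10 and 0.46 ± 0.10, Epha7 by 0.63 ± 0.16 and 0.57 ± 0.16, and Sema5b by 1.57 ± 0.27 and 1.23 ± 0.27. Sema5b was scarce, with 65.8 and 53.9 normalized counts under CHIR-99021, 19.3 and 20.8 under carbidopa, and 24.0 and 26.6 under LY-364947. Its calls in both comparisons did not hold in every fit without 1 library of the groups compared. Fitting only the 2 groups compared lowered the count against carbidopa from 23 to 10, and that of all genes from 2227 to 1027. Leaving out either CHIR-99021 library also lowered the counts of both members and all genes. The split of 7 higher and 16 lower moved further towards lower without carbidopa replicate 1 and became even without replicate 2. Likewise, leaving out a library of either group lowered the counts against LY-364947, for members and for all genes. Of the genes with values for every library, Epha2, Epha7, Sema3b and Efnb2 lost their call in both comparisons under at least 1 alternative. Unc5c, Sema3c, Robo1, Robo2 and Plxnd1 lost it against carbidopa, and Unc5b and Slit2 lost it against LY-364947. In contrast, Plxnc1, Sema3d, Epha4, Sema3e and Ephb3 passed in both under every alternative run.

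**Figure D4:**
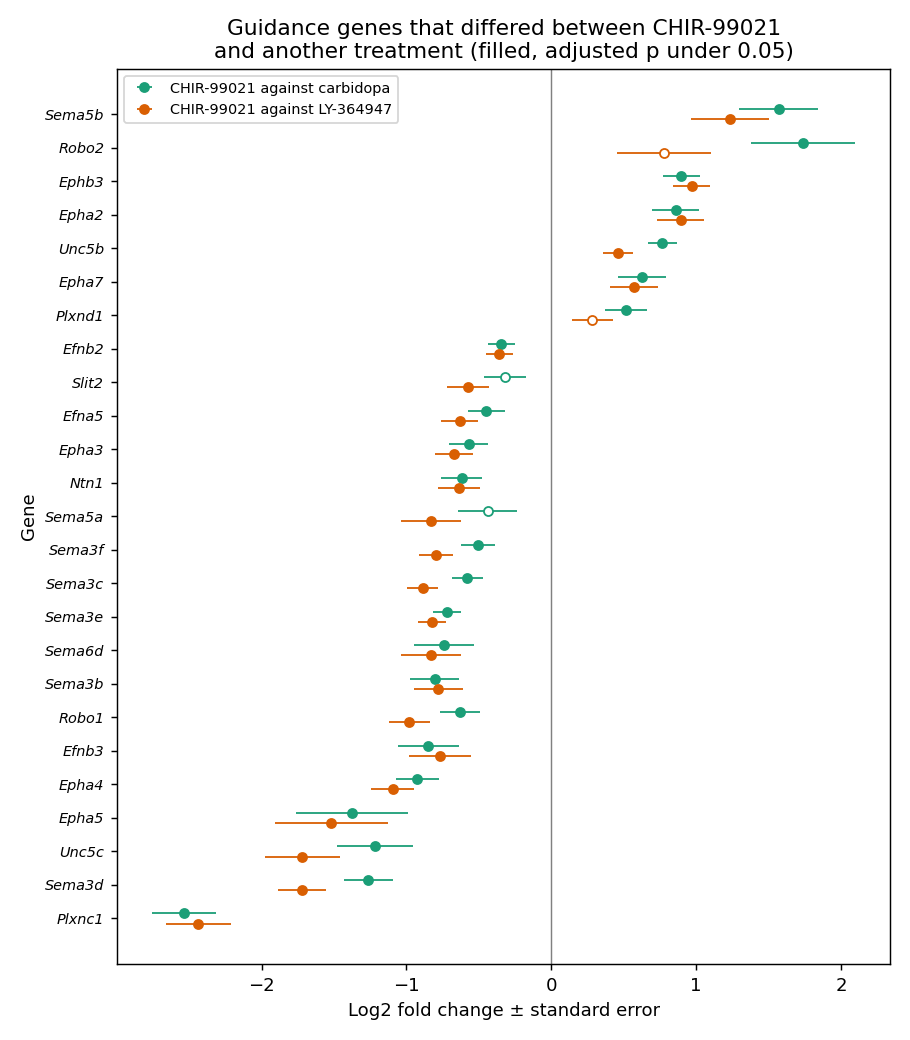
Log2 fold change (points, with bars of 1 standard error) of CHIR-99021 against carbidopa and against LY-364947 for the 25 guidance genes called in either comparison, filled where the adjusted p was under 0.05. Plxnc1 lies lowest at -2.53 and -2.44, and Ephb3 and Epha2 lie between 0.86 and 0.97 in both.

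Between LY-364947 and carbidopa no member passed, by edgeR or by DESeq2, and 7 had an unadjusted p under 0.05 by edgeR; of all genes, 0.0132% were called. Libraries did not overlap for 26 members, against 37.7% of all genes. Estimates ran from -0.60 ± 0.43 for Sema7a to 0.96 ± 0.40 for Robo2, with 0.10 ± 0.10 for Sema3e, 0.01 ± 0.09 for Efnb2 and 0.35 ± 0.14 for Robo1. That no member passed rested on 1 library. Without carbidopa replicate 2 some members were called, all higher under LY-364947, but calls rose widely among all genes as well. A p that misses the threshold does not show that the compounds act alike.

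Partner genes of these pathways (co-receptors, regulators and effectors) were read in the same fit. Of 98 listed, 92 were tested, and 46, 39 and 49 of these were called, beside 37.7%, 31% and 38.8% of all genes. Under carbidopa, 14 were higher and 32 lower, under LY-364947 14 and 25, and under CHIR-99021 21 and 28, and the median log2 fold changes were -0.19, -0.11 and -0.12. Among semaphorin and plexin partners, Nrcam, a neuropilin-associated adhesion molecule, rose by 2.70, 2.59 and 2.73, and Rnd1, a small GTPase that binds plexins, by 3.21, 3.13 and 3.07. L1cam, a further neuropilin-associated adhesion molecule, fell by 3.27, 2.97 and 3.30, and the plexin-linked oxidoreductase gene Mical2 by 1.65, 1.49 and 1.09. Of 24 tested in that list, 4, 4 and 5 were higher and 10, 8 and 10 lower.

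Around the Slits and Robos, the Robo-binding GTPase regulator Srgap3 rose by 1.86, 2.16 and 2.38 and the kinase gene Abl1 by 1.21, 1.34 and 1.32, while the Slit-binding proteoglycan Gpc1 fell by 1.41, 1.53 and 0.64. Around the netrins and other cues, Rgmb, a neogenin ligand, rose by 1.37, 1.24 and 1.63, and Flrt2, an Unc5 ligand, fell by 1.55, 1.34 and 1.62. Among Eph partners, Rasa1, the Ras GTPase-activating protein recruited by Eph receptors, fell by 1.60, 1.51 and 1.56 and the Rac activator gene Tiam1 by 1.87, 1.57 and 1.19. Of the 14 Eph partners tested, 1, 0 and 3 were higher and 5 were lower with each compound.

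Other marker lists were read in the same fit. Of all genes, 19.7%, 17.2% and 20.1% were lower and 18%, 13.7% and 18.7% higher under carbidopa, LY-364947 and CHIR-99021. The 16 fibroblast markers summed to 46203 and 45643 CPM in untreated MEFs and 10930 to 14554 in treated ones, with 14 lower and 1 higher for each compound. The 12 neuron markers summed to 104 and 102 CPM in untreated MEFs and 15.6 to 18.8 in treated ones, with 5 of 7 tested lower for each compound, 1 (Nefm) higher under carbidopa and CHIR-99021, and Rbfox3, Snap25 and Elavl3 at 0 to 3 reads in every library. The 9 Schwann and glial markers summed to 18.4 and 19.4 and to 11.1 to 15.2, with 1, 1 and 3 of 5 tested lower, and the 10 epithelial markers to 4.24 and 3.29 and to 9.82 to 21.6, with 1, 1 and 3 of 3 tested higher and Epcam at 0 to 6 reads. The 14 hepatocyte markers summed to 7.29 and 7.61 and to 4.58 to 14.7, and of these only Trf had enough reads to be tested and was called higher under carbidopa. The part of these shifts in the results on guidance genes was not tested.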

How the data were processed

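Gene-level read counts were deposited by the authors for 8 libraries, raw and not normalized. Per the study's methods and the submitters' processing notes, reads were mapped to mm10 with STAR 2.4.2a, counted with featureCounts and normalized with DESeq2, but the deposited values are whole-number counts. The annotation and strand setting are not given in the sources used here, and the labels and the methods name different library kits. Members and gene lists were chosen with earlier results of these data known; the sex-linked genes and the transcript-length alternative were added after the data were examined.

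Counts were fitted with edgeR 4.0.16 (TMM scaling, filterByExpr, quasi-likelihood F-test, all 8 libraries, 1 coefficient per group), with Benjamini-Hochberg adjustment over the 15154 genes tested (30% of 50578) and a threshold of 0.05. The biological coefficient of variation was 11%. Standard errors are the log2 fold change over the square root of F. Normalized counts are counts over TMM effective library size, scaled to its mean. FPKM used the union of GENCODE M21 exons, which held 99.6% of the gene IDs and all 67 members. Scripts were tested on simulated counts. Members named by rule with every library's value were the largest 5 rises and 5 falls per comparison among called, non-overlapping members whose higher group averaged 100 or more normalized counts, and the highest member per family by FPKM in untreated MEFs. Further members are named as examples, Nrp1 and Slit2 among them with every library's value. Of partner and marker lists, up to 4 genes with the smallest p and the defining markers near 0 are named. The separate result of 1 partner list is not reported here. Same-numbered replicates were checked for pairing: correlations of their deviations between groups ran from -0.161 to 0.128, so no block was used. Alternatives were DESeq2 1.42.0, RLE size factors, other count filters, fits of the 2 groups compared, a replicate block, leaving out each library, and another gene length. Depth (15039566 to 20504338 counts) limits the scarce members most.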

Additional observations from a re-analysis of the deposited data

How the results depend on the processing

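Among the 24 members named by the rule above, no call changed direction. Nrp1 and Slit2, also given with every library's value, are not among these 24. Nrp1 lost its call under CHIR-99021 without untreated replicate 2. Slit2 lost its call in CHIR-99021 against LY-364947 in fits without 1 library. Of 1428 recomputed log2 fold changes for 144 results, 1331 stayed on their side of the threshold, 81 no longer passed and 16 newly passed. Values that passed in neither fit could change sign, as for Epha1 in CHIR-99021 against carbidopa (0.24, with alternatives from -0.99 to 0.90). Fitting only the 2 groups compared gave 10 members for CHIR-99021 against carbidopa in place of 23, and 62 partner genes for LY-364947 against untreated MEFs in place of 39. Leaving out 1 library gave 29 to 42 members for carbidopa, 26 to 29 for LY-364947 and 30 to 35 for CHIR-99021 against untreated MEFs, 8 to 27 members for CHIR-99021 against carbidopa, 10 to 14 for CHIR-99021 against LY-364947, 0 to 16 for LY-364947 against carbidopa (the 16 without carbidopa replicate 2) and 28 to 39 partner genes for CHIR-99021 against untreated MEFs, where the full set gave 49. Where these counts moved, the count over all genes called moved in the same direction. These ranges cover only fits without 1 library of the 2 groups compared, and not those without a library of another group. Such fits leave 1 library in a group, which is assumed to vary like the others. The causes were not tested beyond the smaller number of libraries. With the replicate number as a block, whose pairing the data do not bear out, members called were 38, 36 and 38 for carbidopa, LY-364947 and CHIR-99021 against untreated MEFs, 20 for CHIR-99021 against either other compound and 0 between those. Per-length levels in untreated MEFs moved by more than their SD with RLE size factors for Ntn4 (12.2 FPKM), Nrp2 (30.5) and Slit3 (182), and with the length of the longest coding transcript for Ephb3 (15.8 FPKM), Efnb2 (21.6), Ntn4 (12.3), Nrp2 (53.0), Robo2 (7.38), Sema3c (39.1), Slit3 (208) and Unc5b (17.3). Requiring at least 10 counts in every library removed Robo2 and Epha1 from testing. The members with at most 16 reads were below what this depth can compare; without a filter, only Plxnb3 passed, lower with CHIR-99021.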

Other observations

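Several members are neighbours in the genome. Robo1 and Robo2 lie on chromosome 16 with 845744 bases and no annotated coding gene between them (GENCODE M21, mm10). Sema3d, Sema3a, Sema3e and Sema3c lie within 5.35 megabases of chromosome 5, with no coding gene between Sema3d and Sema3a, 1 between Sema3a and Sema3e, and 16 between Sema3e and Sema3c. Along this stretch the log2 fold changes with CHIR-99021 were -1.94 ± 0.17, 0.17 ± 0.24, 2.68 ± 0.10 and 0.63 ± 0.11 for Sema3d, Sema3a, Sema3e and Sema3c, and with carbidopa -0.68 ± 0.16, -0.07 ± 0.24, 3.40 ± 0.11 and 1.21 ± 0.11. Under LY-364947 they were -0.22 ± 0.16, 0.31 ± 0.24, 3.50 ± 0.11 and 1.52 ± 0.11, and Sema3d did not pass. Sema3d was thus called in the opposite direction to Sema3e and Sema3c under CHIR-99021 and carbidopa, and the carbidopa call on Sema3d was lost without untreated replicate 2 (adjusted p = 0.086, edgeR). Efna1, Efna3 and Efna4 lie beside each other on chromosome 3, and Efna3 alone of these passed, lower by 0.95, 0.96 and 0.84 under carbidopa, LY-364947 and CHIR-99021.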
